A study of Mus musculus with 8 samples.

Results

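The aminoacyl-tRNA synthetases are the enzymes that join each amino acid to its own tRNA, the step on which the reading of the genetic code rests. Cytosolic and mitochondrial protein synthesis use largely separate sets of these enzymes, and both sets are encoded in the nucleus. The 37 genes followed here, 21 cytosolic and 16 mitochondrial, were listed by gene symbol, with earlier results of these data known. Of these, 36 were measured, 20 cytosolic and 16 mitochondrial, among 18193 genes with a value in the whole data set. The gene for the aspartyl enzyme, Dars, had no probe set with a single gene symbol and is not reported. A mitochondrial enzyme usually carries the suffix 2, an exception being Tarsl2, a second cytosolic threonyl-tRNA synthetase. Gars and Kars, counted here as cytosolic, give rise to the glycyl and lysyl enzymes of both compartments.

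The arrays carried RNA of the mouse embryonic stem cell (ESC) line R1/E. Of 8 Affymetrix expression arrays, 4 came from cells transfected with esiRNA against Rad21 and 4 from cells that received esiRNA against luciferase (Luc), a gene mouse cells lack. An esiRNA is an enzymatically made pool of short interfering RNAs, and the product of Rad21 closes the cohesin ring, which holds sister chromatids together. Both groups were collected 48 h after transfection of 800 ng esiRNA into wells of 80000 cells, and the labels number the biological replicates of each group from 1 to 4. All values are on the log2 scale, and each gene is represented by its brightest probe set. A change is the Rad21 mean minus the Luc mean, and a gene was taken to be lower or higher when the adjusted p of limma, over 45037 probe sets, was under 0.05.

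The targeted transcript was depleted in every knock-down array. Rad21 read 11.69, 11.75, 12.37 and 12.52 on the knock-down arrays, against 13.62, 13.42, 13.83 and 13.79 on the Luc arrays, a change of -1.58 ± 0.21 (SE, limma adjusted p = 0.00222). The ESC markers Pou5f1, Nanog, Sox2, Zfp42, Dppa5a and Tdgf1 averaged 14.56 to 14.62 per array after the knock-down and 14.89 to 14.94 in the Luc control (exact permutation p = 0.0286, the smallest that 4 against 4 arrays can give, two-sided), and 4 of the 6 were lower. Means over 7 fibroblast markers (2.96 to 3.14 after the knock-down, 3.0 to 3.06 in Luc, exact permutation p = 0.629, two-sided) and over 5 endoderm markers (2.59 to 2.63 after the knock-down, 2.53 to 2.62 in Luc) lay near the array medians of 3.08 to 3.16. Among the fibroblast markers, Thy1 was lower (-0.56, adjusted p = 0.0248), and Col3a1 read 4.69, 4.25, 3.11 and 3.42 in the knock-down and 3.15, 3.10, 3.03 and 3.0 in the Luc control (change 0.80, adjusted p = 0.189, and 1.35 with adjusted p = 0.0127 in replicates 1 and 2 alone). The part of these markers in the results below was not tested. Principal components of the 8 arrays parted knock-down and Luc arrays on the first axis (66.2% of the variance) and, on the second (11.6%), the replicates numbered 1 and 2 and those numbered 3 and 4. No batch is named in the labels, and changes are also given within each such replicate set.

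More of the cytosolic than of the mitochondrial synthetase genes were lower after Rad21 knock-down, a difference that was not tested. Of the 20 cytosolic genes, 12 (60.0%) were lower and 1 (5.0%), Tarsl2, was higher, while among all genes 12.6% were lower and 10.1% were higher. Of the 16 mitochondrial genes, 5 (31.2%) were lower and 2 (12.5%) were higher. The median change was -0.39 for the cytosolic genes and -0.10 for the mitochondrial genes, beside a median of 0.0033 over all genes. Every measured cytosolic gene averaged above 8, and among the 6574 genes that did, 26.0% were lower, 16.5% were higher and the median change was -0.05. The mitochondrial genes averaged from 4.20 (Mars2) to 10.96 (Yars2). Among the 10299 genes that averaged 4 or more, 22.0% were lower, 16.7% were higher and the median change was -0.03. The part of signal level in the difference between the compartments was not tested. All 4 knock-down arrays lay below all 4 Luc arrays for 13 cytosolic and 6 mitochondrial genes (15.2% of all genes), and above them for 1 cytosolic and 2 mitochondrial genes (12.6% of all genes). Arrays of bulk RNA cannot tell fewer cells of a type from less RNA per cell.

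**Figure D1:**
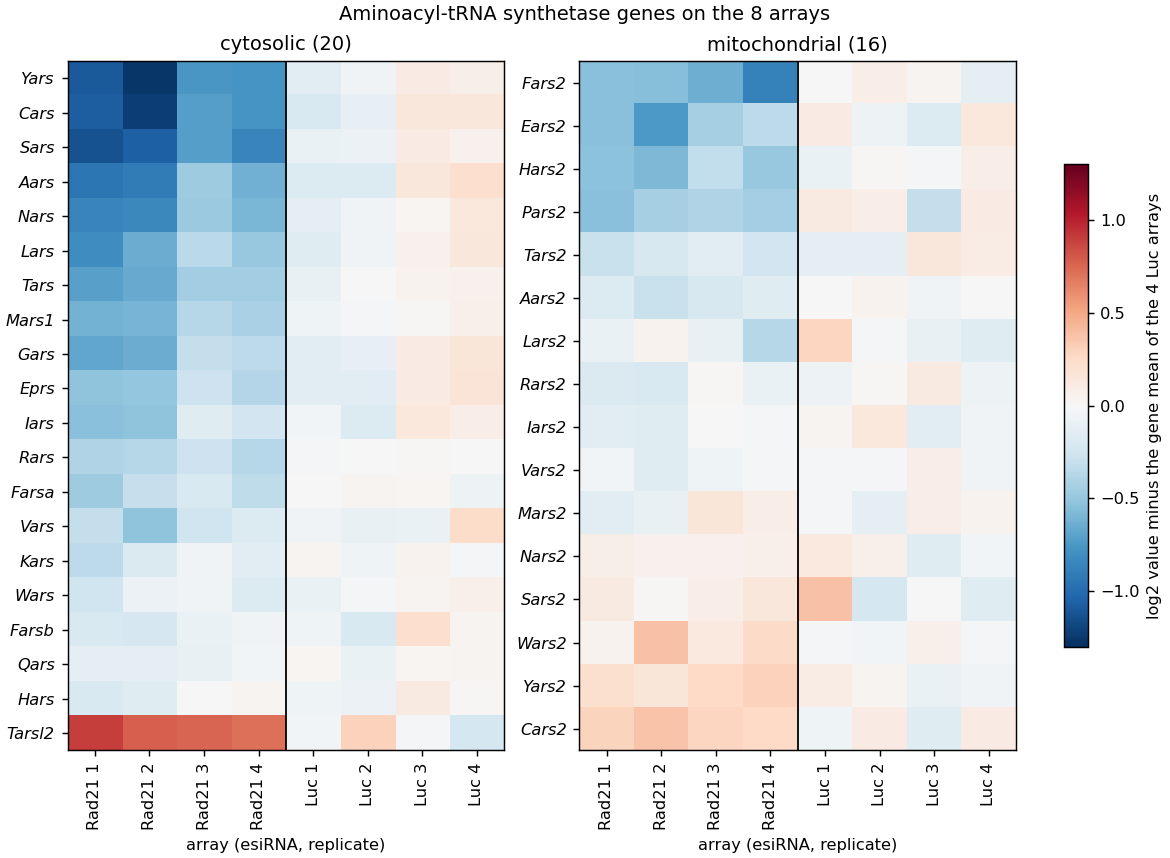
Values of the 20 cytosolic (left panel) and 16 mitochondrial (right panel) synthetase genes on the 8 arrays, each as its log2 value minus the mean of that gene on the 4 Luc arrays, with the Rad21 columns left of the Luc columns. Blue covers all 4 Rad21 columns for the upper 10 cytosolic genes, whose changes run from -0.97 to -0.42, and Tarsl2 is red in all 4 (change 0.79).

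The deepest falls belonged to the enzymes for tyrosine, cysteine and serine, each at 51.0% to 52.0% of its Luc level. Yars, the tyrosyl-tRNA synthetase, read 9.36, 9.19, 9.70 and 9.68 in the knock-down and 10.31, 10.41, 10.56 and 10.54 in the Luc control. Its change was -0.97 ± 0.13 (SE, adjusted p = 0.00193). Cars, which charges tRNA with cysteine, read 9.55, 9.40, 9.91 and 9.85 in the knock-down and 10.43, 10.52, 10.77 and 10.77 in the Luc control. No knock-down array of either gene reached the lowest Luc array. Cars changed by -0.94 ± 0.14 (adjusted p = 0.00312). Sars, the seryl enzyme, which also charges the selenocysteine tRNA with serine, read 11.68, 11.75, 12.10 and 11.95 in the knock-down and 12.73, 12.74, 12.92 and 12.87 in the Luc control. The gap between its groups was wider than the range within either of them, and the change was -0.94 ± 0.10 (adjusted p = 7.11e-04).

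A second tier, at 60.2% to 71.1% of the Luc level, held the enzymes for alanine, asparagine, leucine, threonine, methionine and glycine. Aars, the alanyl-tRNA synthetase, read 11.57, 11.60, 12.04 and 11.88 in the knock-down and 12.32, 12.33, 12.65 and 12.72 in the Luc control (change -0.73 ± 0.14, adjusted p = 0.0114). Nars, for asparagine, read 12.67, 12.70, 13.05 and 12.94 in the knock-down and 13.42, 13.48, 13.56 and 13.67 in the Luc control (change -0.69 ± 0.10, adjusted p = 0.00274). Lars, the leucyl enzyme, which is also known as a leucine sensor upstream of mTORC1, read 12.49, 12.64, 12.94 and 12.80 in the knock-down and 13.13, 13.25, 13.35 and 13.43 in the Luc control (change -0.57 ± 0.11, adjusted p = 0.0103). For all 3 genes the replicates 1 and 2 of the knock-down were the lowest of the 8 arrays, and the groups were separate.

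Tars, the threonyl enzyme, read 12.12, 12.17, 12.38 and 12.38 in the knock-down and 12.73, 12.83, 12.87 and 12.89 in the Luc control (change -0.57 ± 0.07, adjusted p = 0.00173). Mars1, which supplies the methionine of initiator as well as elongator tRNA, read 12.71, 12.72, 12.95 and 12.90 in the knock-down and 13.27, 13.30, 13.34 and 13.39 in the Luc control (change -0.50 ± 0.06, adjusted p = 0.00171). Gars read 13.08, 13.12, 13.45 and 13.42 in the knock-down and 13.61, 13.65, 13.86 and 13.91 in the Luc control (change -0.49 ± 0.11, adjusted p = 0.0235). The groups of these 3 genes did not overlap either, although the Gars call ended without knock-down replicate 1 or 2 or Luc replicate 3 or 4 (highest adjusted p = 0.0650).

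The remaining called falls were smaller. Eprs, a single polypeptide that charges tRNA with glutamate and with proline, changed by -0.42 ± 0.09 (adjusted p = 0.0202), a call that ended without knock-down replicate 1 or 2 or Luc replicate 3 (highest adjusted p = 0.0596). Rars, for arginine, changed by -0.35 ± 0.03 (adjusted p = 3.67e-04), with the smallest standard error of the 36 genes. Farsa, the alpha subunit of the phenylalanyl enzyme, changed by -0.32 ± 0.06 (adjusted p = 0.00743).

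The one cytosolic rise stood apart from the rest of its group. Tarsl2 read 8.79, 8.67, 8.65 and 8.61 in the knock-down and 7.85, 8.19, 7.86 and 7.66 in the Luc control. Every knock-down array was above every Luc array, and the change was 0.79 ± 0.11 (adjusted p = 0.00242), or 1.73-fold. Tars, the major cytosolic enzyme for the same amino acid, was lower on the same arrays.

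The other 7 cytosolic genes did not pass the test and had negative changes. Iars, for isoleucine (-0.37, adjusted p = 0.0666), and Vars, for valine (-0.32, adjusted p = 0.0812), were nearest to it, and the 4 Vars knock-down arrays all lay below the Luc arrays. Kars (-0.18), Wars for tryptophan (-0.14), the beta subunit gene Farsb (-0.14), Qars for glutamine (-0.09) and Hars for histidine (-0.08) had adjusted p from 0.117 to 0.644. Another probe set of the same gene was lower for 5 of these 7. The second Iars probe set changed by -0.54 (adjusted p = 0.0201), a Qars one by -0.32 (adjusted p = 0.00202), a Wars one by -0.37 (adjusted p = 0.00424), and the second Hars one by -0.25 (adjusted p = 0.00889). A pair of Farsb probe sets changed by -0.35 (adjusted p = 0.0115) and -0.41 (adjusted p = 0.00566). The brightest probe set of all 5 genes has a name ending in _x_at, _s_at or _a_at, which marks probes that can match more than one transcript. The same holds for Sars, Aars and Farsa, which were lower. For Iars, Farsb, Qars and Wars the call was gained when sets ending in _x_at or _s_at were left out. The part of these probe set types in the calls was not tested. Counted by any probe set, 17 of 20 cytosolic genes were lower at 1 probe set or more and 1 was higher, against 15.3% and 11.3% of all genes. Over all 41 probe sets of the cytosolic genes, 22 were lower and 1 was higher, against 8.40% and 6.47% of all 45037 probe sets, and no gene had probe sets called in opposite directions.

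**Figure D2:**
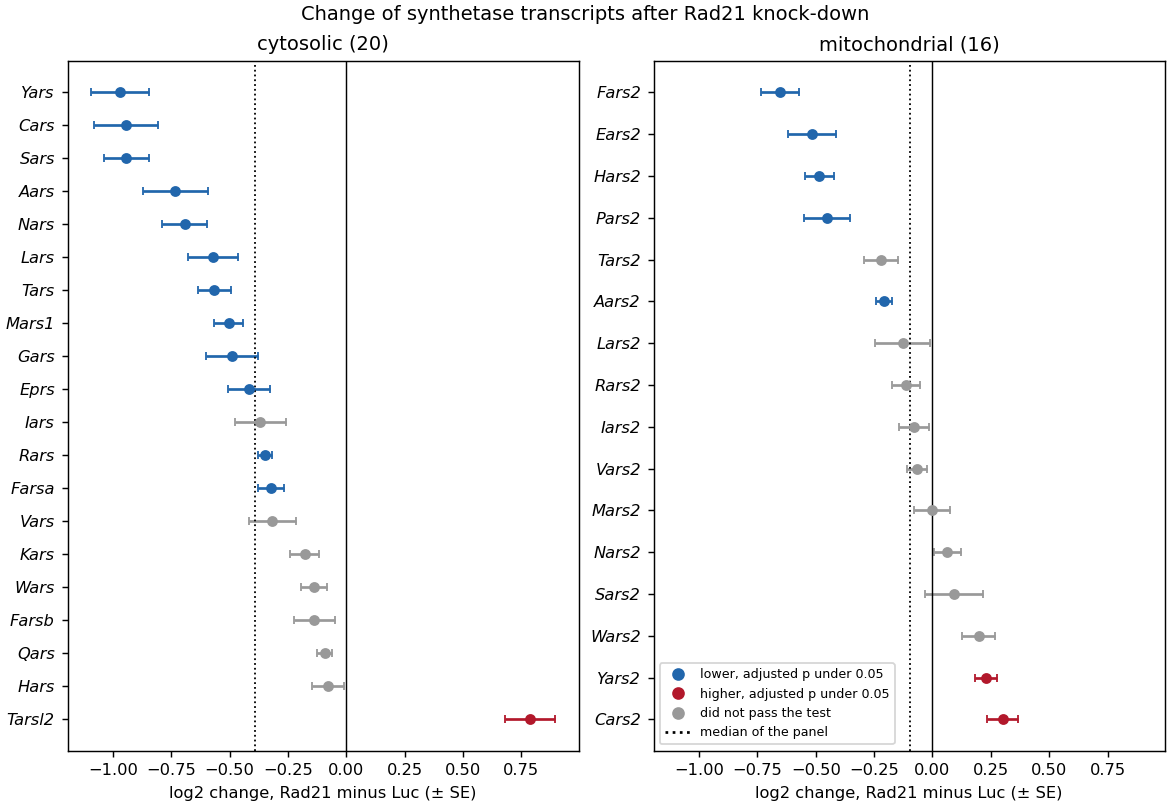
Change of each measured gene (log2, Rad21 minus Luc, 4 arrays per group) in the cytosolic and mitochondrial panels, with bars of 1 standard error, blue for lower, red for higher and grey for genes that did not pass the test. The dotted lines mark the panel medians of -0.39 and -0.10, and Tarsl2 (0.79) is the only cytosolic gene right of 0.

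Promoter sequences were compared because several cytosolic synthetase genes are known targets of Atf4, a transcription factor of the amino acid response, which binds composite C/EBP-ATF elements. Of the 37 genes, 28 matched by symbol a RefSeq promoter in GRCm38.p6 (250 bases before the annotated start and 50 from it on), 14 cytosolic and 14 mitochondrial. The letters TGATGNAA, the core of such an element, were searched on both strands and were found in 5 of the 14 cytosolic promoters (35.7%), 0 of the 14 mitochondrial promoters and 3.97% of all 32851 promoters of the same length. The 5 genes were Yars, Aars, Tars and Gars, which were lower, and Iars, whose brightest probe set did not pass the test. The windows below run from 120 bases before the start to 30 bases from it on, 5′ to 3′ on the strand of the gene, with matches in capitals (TTNCATCA where the match is on the opposite strand). Sars and Tarsl2, which fell and rose, are shown as promoters without a match.
Yars (chr4:129189783-129189932, + strand): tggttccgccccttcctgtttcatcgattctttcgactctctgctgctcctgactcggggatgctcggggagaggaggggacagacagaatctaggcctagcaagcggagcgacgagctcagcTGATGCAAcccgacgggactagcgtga
Aars (chr8:111033722-111033871, + strand): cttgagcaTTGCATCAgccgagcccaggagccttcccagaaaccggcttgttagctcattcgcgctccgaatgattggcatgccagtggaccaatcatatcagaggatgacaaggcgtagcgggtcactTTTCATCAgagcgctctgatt
Tars (chr15:11399629-11399778, - strand): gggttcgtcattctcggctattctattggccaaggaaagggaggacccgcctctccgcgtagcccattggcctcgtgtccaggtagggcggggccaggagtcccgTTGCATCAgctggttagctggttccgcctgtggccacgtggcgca
Gars (chr6:55037881-55038030, + strand): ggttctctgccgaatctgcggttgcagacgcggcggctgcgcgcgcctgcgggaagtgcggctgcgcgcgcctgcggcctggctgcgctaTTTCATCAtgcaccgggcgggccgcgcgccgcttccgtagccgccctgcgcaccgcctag
Iars (chr13:49682010-49682159, + strand): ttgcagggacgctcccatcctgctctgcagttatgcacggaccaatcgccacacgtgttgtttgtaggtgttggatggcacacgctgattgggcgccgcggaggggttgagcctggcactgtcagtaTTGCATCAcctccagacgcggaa
Sars (chr3:108445230-108445379, - strand): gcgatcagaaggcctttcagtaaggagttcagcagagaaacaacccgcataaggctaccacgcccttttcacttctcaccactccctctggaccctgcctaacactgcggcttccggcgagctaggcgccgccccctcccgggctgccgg
Tarsl2 (chr7:65644778-65644927, + strand): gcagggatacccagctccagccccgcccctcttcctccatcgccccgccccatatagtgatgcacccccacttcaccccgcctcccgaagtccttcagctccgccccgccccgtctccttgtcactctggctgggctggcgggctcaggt

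The match of Yars began 3 bases after the annotated start, those of Iars and Aars 7 and 9 bases after it, and those of Tars and Gars 15 and 30 bases before it, while Aars held another match 112 bases before its start. The E-box CACGTG, searched in the same way and sharing no bases with the first motif, was found in 5 of the 28 promoters (17.9%) and in 7.15% of all promoters. These were 4 of the 14 cytosolic promoters (28.6%), of Aars, Iars, Tars and Farsb, and 1 of the 14 mitochondrial promoters (7.14%), of Ears2. Both motifs were thus found in a larger share of the cytosolic than of the mitochondrial promoters. A match describes the letters only, and binding was not measured here.

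The mitochondrial enzymes serve the translation of the few proteins encoded by mitochondrial DNA, all subunits of the complexes of oxidative phosphorylation. The lower mitochondrial genes were those for phenylalanine, glutamate, histidine, proline and alanine. Fars2, which works as a single chain unlike its cytosolic counterpart, read 8.08, 8.06, 7.98 and 7.75 in the knock-down and 8.63, 8.71, 8.66 and 8.50 in the Luc control (change -0.65 ± 0.08, adjusted p = 0.00163). Ears2, the glutamyl enzyme, read 7.79, 7.59, 7.90 and 7.996 in the knock-down and 8.44, 8.27, 8.16 and 8.47 in the Luc control (change -0.52 ± 0.10, adjusted p = 0.0140). Hars2, the neighbour of Hars in the genome, read 7.33, 7.28, 7.54 and 7.37 in the knock-down and 7.78, 7.88, 7.84 and 7.96 in the Luc control (change -0.48 ± 0.06, adjusted p = 0.00199). In these 3 genes the knock-down arrays lay below the Luc arrays without exception. The second probe set of Fars2 did not pass the test (change -0.16, adjusted p = 0.595).

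Pars2, the prolyl enzyme, read 6.69, 6.80, 6.84 and 6.79 in the knock-down and 7.35, 7.31, 6.92 and 7.34 in the Luc control (change -0.45 ± 0.10, adjusted p = 0.0201). Luc replicate 3 lay close to the knock-down arrays, and the call ended without knock-down replicate 1 or 2 or Luc replicate 1, 2 or 4 (highest adjusted p = 0.0591). Aars2 read 6.87, 6.75, 6.84 and 6.88 in the knock-down and 7.04, 7.09, 6.996 and 7.05 in the Luc control (change -0.21 ± 0.04, adjusted p = 0.00672). Its fall was the smallest of the called ones, and the call ended with a variance trend and robust prior (adjusted p = 0.108) and in either replicate set alone (0.0790 and 0.0923).

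A pair of mitochondrial genes rose, and both are counterparts of cytosolic genes among the 3 with the deepest falls. The 2 of 16 (12.5%) stand beside 10.1% of all genes and 16.7% of those that averaged 4 or more. Cars2, the mitochondrial cysteinyl enzyme, read 8.66, 8.74, 8.64 and 8.63 in the knock-down and 8.31, 8.47, 8.21 and 8.48 in the Luc control (change 0.30 ± 0.06, adjusted p = 0.0192). Yars2, the tyrosyl one, read 11.05, 11.01, 11.11 and 11.14 in the knock-down and 10.94, 10.88, 10.76 and 10.81 in the Luc control (change 0.23 ± 0.05, adjusted p = 0.0149). The groups of both were separate, but the Cars2 call ended without knock-down replicate 2 or Luc replicate 1 (highest adjusted p = 0.0568), and its second brightest probe set had a change of -0.02. Yars2 changed by 0.12 in replicates 1 and 2 alone (limma adjusted p = 0.26), and its call ended with the replicate number as a block (adjusted p = 0.0725). The second Yars2 probe set was higher (0.56, adjusted p = 0.0102). Changes of the 9 mitochondrial genes that did not pass the test ran from -0.22 for Tars2 (adjusted p = 0.0919) to 0.20 for Wars2 (adjusted p = 0.128). Between them lay Lars2 (-0.13), Rars2 (-0.11), Iars2 (-0.08), Vars2 (-0.07), Mars2 (-0.0019), Nars2 (0.06) and Sars2 (0.09), the enzymes for leucine, arginine, isoleucine, valine, methionine, asparagine and serine. The second Tars2 probe set was lower (-0.21, adjusted p = 0.00959). With it, 6 of 16 mitochondrial genes were lower at 1 probe set or more, against 15.3% of all genes. That share is matched neither for signal level nor for the number of probe sets per gene.

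Cytosolic and mitochondrial enzymes for the same amino acid could be set side by side in 18 pairs, which share some genes (Eprs, Fars2 and Tars2 enter 2 pairs each) and are given as a description. The change of the cytosolic gene was below that of its mitochondrial partner in 12 pairs and above it in 6, and the median of the differences of changes was -0.31. The difference was -1.25 for Cars and Cars2, -1.20 for Yars and Yars2, -1.04 for Sars and Sars2 and -0.76 for Nars and Nars2. In these 4 pairs the cytosolic change was negative and the mitochondrial change was positive, as also for Wars (-0.14) and Wars2 (0.20), neither past the test. The changes of Sars2 (0.09, limma adjusted p = 0.816) and Nars2 (0.06, 0.662) did not pass either, and were -0.0036 and -0.028 in replicates 1 and 2. The order was the opposite for phenylalanine and histidine, where the differences were 0.33 for Farsa and Fars2, 0.52 for Farsb and Fars2 and 0.40 for Hars and Hars2, and for Tarsl2 and Tars2 (1.01). For phenylalanine this order depended on the probe set. The second Fars2 set changed by -0.16, less than Farsa (-0.32), and other Farsb sets changed by -0.35 and -0.41. The second sets of Hars (-0.25) and Hars2 (-0.61) kept the order. Eprs (-0.42) changed about as much as both of its partners, Ears2 (-0.52) and Pars2 (-0.45).

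**Figure D3:**
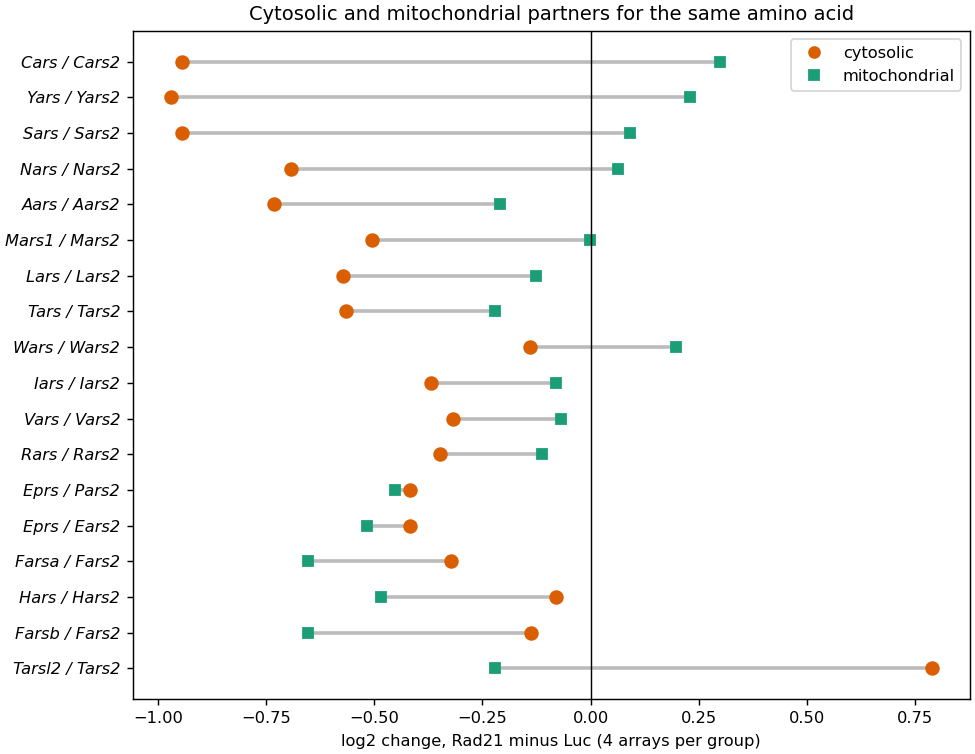
Change (log2, Rad21 minus Luc) of the cytosolic (orange circles) and the mitochondrial (green squares) synthetase for the same amino acid in 18 pairs, ordered by the difference of the changes. The upper 12 pairs have the cytosolic gene on the left, by up to 1.25 (Cars and Cars2, a difference of -1.25), and the lower 6 have it on the right.

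Within the cytosol, the falls were spread over structural classes. Synthetases belong to class I or class II by the fold of their catalytic domain. Of 9 class I genes 5 were lower (median change -0.37), and of 10 class II genes 6 were lower and 1 was higher (median -0.41), with Eprs, which holds a domain of each class, in neither count. Part of the cytosolic enzymes form the multisynthetase complex, a large assembly held together by scaffold proteins. Of its 7 measured enzymes (Eprs, Iars, Kars, Lars, Mars1, Qars and Rars) 4 were lower, with a median change of -0.37 and 0 above 0, and of the 13 genes outside it 8 were lower and 1 was higher, with a median of -0.49. Beside these counts, 12.6% of all genes were lower and 10.1% were higher. Among genes that averaged 8 or more the shares were 26.0% and 16.5%. Yars, Cars, Sars, Aars and Nars, with the 5 deepest falls, are all outside the complex. The scaffold genes Eef1e1 (-0.30, adjusted p = 0.00830) and Aimp1 (-0.27, adjusted p = 0.00176) were lower, and Aimp2 had a change of 0.01.

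The cytosolic falls were present in both replicate sets. Among the arrays numbered 1 and 2, 13 cytosolic genes were lower and 1 was higher (median change -0.41), against 10.8% and 9.03% of all genes. Among those numbered 3 and 4, 11 were lower and 1 was higher (median -0.38), against 7.67% of all genes in each direction. Changes were negative in both sets for 19 of the 20 genes, Tarsl2 being the other one (changes of 0.71 and 0.87). Of the mitochondrial genes, 4 were lower in replicates 1 and 2 (median change -0.14) and 0 in replicates 3 and 4 (median -0.06), on 2 arrays per group. Those 4 were Ears2, with changes of -0.66 in replicates 1 and 2 and -0.37 in replicates 3 and 4, Pars2 (-0.59 and -0.32), Hars2 (-0.52 and -0.44) and Fars2 (-0.59 and -0.71). The change of Fars2 was thus larger in the set where its call was lost (adjusted p = 0.0566), and that of Hars2 was similar in both (adjusted p = 0.0785 in replicates 3 and 4). A test of the difference between the sets passed for 0 of the 36 genes.

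The levels themselves also moved with the replicate set. In both groups the mean of replicates 3 and 4 was above that of replicates 1 and 2 for 18 of 20 cytosolic genes, the others being Farsa and Tarsl2, against 5 of 16 mitochondrial genes and 30.1% of all genes. The median step between the sets was 0.21 in the knock-down and 0.15 in the Luc control for the cytosolic genes. Rad21 itself was at 11.69 and 11.75 in the knock-down replicates 1 and 2 and at 12.37 and 12.52 in the replicates 3 and 4. The part of the replicate set in the cytosolic levels was not tested.

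**Figure D4:**
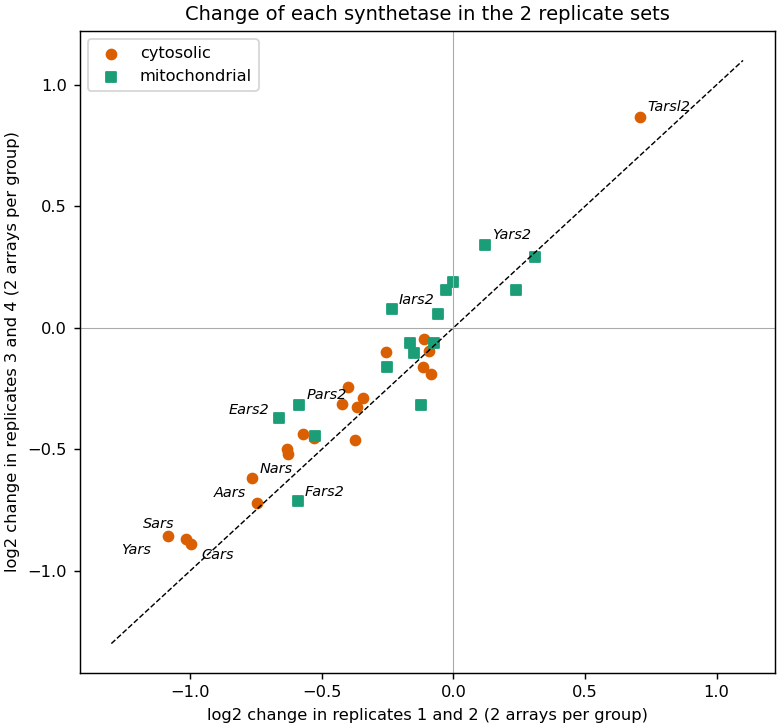
Change of each synthetase gene (log2, Rad21 minus Luc) in replicates 1 and 2 (horizontal axis) and in replicates 3 and 4 (vertical axis), 2 arrays per group in each set, with a dashed line of equal changes. Of the 20 cytosolic genes (orange), 19 lie below 0 on both axes, and Tarsl2 is at 0.71 and 0.87.

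Most genes that sense uncharged tRNA or belong to the Atf4 response were lower as well. When uncharged tRNA accumulates, the kinase Gcn2 phosphorylates eIF2 alpha, which favours the translation of Atf4. Of 14 measured genes of this list 8 (57.1%) were lower and 1 (7.14%) was higher (median change -0.63), against 12.6% and 10.1% of all genes. Of the genes that averaged 4 or more, as all 14 did, 22.0% were lower and 16.7% were higher. Within replicates 1 and 2, 7 of the 14 were lower and 2 were higher, against 10.8% and 9.03% of all genes. Within replicates 3 and 4, 9 were lower and 1 was higher, against 7.67% of all genes in each direction. Changes were negative for 9 genes in replicates 1 and 2, for 12 in replicates 3 and 4, and for 9 in both. Nupr1, a stress-induced chromatin protein, changed by -2.52 ± 0.47 (adjusted p = 0.00980), Trib3, a pseudokinase that Atf4 induces, by -1.44 ± 0.27 (adjusted p = 0.0103), Asns, the asparagine synthetase, by -1.18 ± 0.15 (adjusted p = 0.00172) and Atf5, an Atf4 relative, by -1.04 ± 0.21 (adjusted p = 0.0146). Atf4 read 11.99, 11.96, 12.58 and 12.45 in the knock-down and 13.14, 13.28, 13.22 and 13.27 in the Luc control, separate groups with a change of -0.98 ± 0.15 (adjusted p = 0.00364). Its knock-down replicates 1 and 2 were the lowest of the 8 arrays, as for Yars and Cars. Eif2ak4, which encodes Gcn2, had a change of -0.0035 (adjusted p = 0.995), and Impact, an inhibitor of Gcn2 activation, was higher by 0.47 (adjusted p = 0.00881). The letters TGATGNAA were found in the promoters of 4 of 14 genes of this list (28.6%), against 4.51% of all genes with a promoter sequence. The direction of this list was known from earlier results of the same arrays.

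Other lists of the translation machinery changed to differing extents. The mitochondrial ribosomal proteins were lower in 40 of 76 genes (52.6%) and higher in 3 (3.95%), with a median change of -0.19. The same shares were 12.6% and 10.1% of all genes, and 26.0% and 16.5% of the genes that averaged 8 or more. Among the lower ones were Mrpl14 (-0.59, adjusted p = 0.00226), Mrpl1 (-0.58, adjusted p = 0.00377), Mrps16 (-0.52, adjusted p = 6.47e-04) and Mrpl35 (-0.44, adjusted p = 1.64e-04). The 3 higher ones were Mrpl33 (0.31), Mrps21 (0.30) and Mrps24 (0.16), the call of the last of these ending without any 1 array except Luc replicate 2 (adjusted p up to 0.106). Within replicates 1 and 2, 26 of the 76 were lower, against 10.8% of all genes, and within replicates 3 and 4, 15, against 7.67%. Of 9 mitochondrial translation factors 6 (66.7%) were lower and 1 (11.1%) was higher, against 12.6% and 10.1% of all genes. These included the release factor gene Mtrf1l (-0.96, adjusted p = 0.00303), the initiation factor gene Mtif3 (-0.58, adjusted p = 0.0252, not passing without replicate 4 of either group), Gfm2, which acts in ribosome recycling (-0.37, adjusted p = 0.00290), and the elongation factor gene Tsfm (-0.31, adjusted p = 0.00246), while the GTPase gene Guf1 was higher (0.80, adjusted p = 0.0153). Mtrf1l changed by -1.26 in replicates 1 and 2 and by -0.66 in replicates 3 and 4, and it passed the test of the difference between the sets (adjusted p = 0.0429). That test was also passed by 2 genes of the Atf4 response list and 1 of the proofreading and special charging list. The mitochondrial ribosome genes thus had a larger share of lower members (52.6%) than the mitochondrial synthetases (31.2%), a difference that was not tested. All of the ribosome genes averaged above 8, the lowest being Mrpl14 at 8.92, while means of the mitochondrial synthetases went down to 4.20 (Mars2). Of genes that averaged 4 or more 22.0% were lower, and of those that averaged 8 or more 26.0%. The part of signal level in the difference was not tested.

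Of 20 measured genes for tRNA processing and export 7 were lower and 1 was higher (median change -0.23), with 3 lower without Luc replicate 2 and 4 without Luc replicate 4. The share of 35.0% stands beside 26.0% of the genes that averaged 8 or more and 12.6% of all genes. Rpp25, a subunit of RNase P (-0.44), Trit1, which modifies an adenosine next to the anticodon (-0.40), Pus1, a pseudouridine synthase (-0.38), and Pop4, another RNase P subunit (-0.24), were the deepest of the lower ones, and the RNase P subunit gene Pop5 was higher (0.21). The call of Pus1 ended without knock-down replicate 2 or any Luc array (highest adjusted p = 0.0782), that of Pop4 without knock-down replicate 1 or Luc replicate 2, 3 or 4 (0.0577) and that of Pop5 without any 1 array other than Luc replicate 2 (0.0972). Of 11 genes for proofreading and special charging 2 (18.2%) were lower, a share between the same values. Aarsd1, which removes wrong amino acids from alanine tRNA (-0.46, adjusted p = 0.00333), and Gatb (-0.37, adjusted p = 0.00704) were lower and Qrsl1 was higher (0.51, adjusted p = 9.08e-04). Gatb and Qrsl1 encode subunits of the same mitochondrial enzyme, which makes glutaminyl-tRNA from glutamyl-tRNA, the product of Ears2. Of 7 cytosolic elongation and release factor genes 1 (14.3%) was lower, the release factor gene Etf1 (-0.23, adjusted p = 0.0211), 0 were higher, and the median change was 0.04. All 7 averaged above 8. Their share of lower genes stands beside 26.0% of the genes that averaged 8 or more and 12.6% of all genes. The Etf1 call ended without any 1 array other than knock-down replicate 3 or Luc replicate 1 (highest adjusted p = 0.0601).

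**Figure D5:**
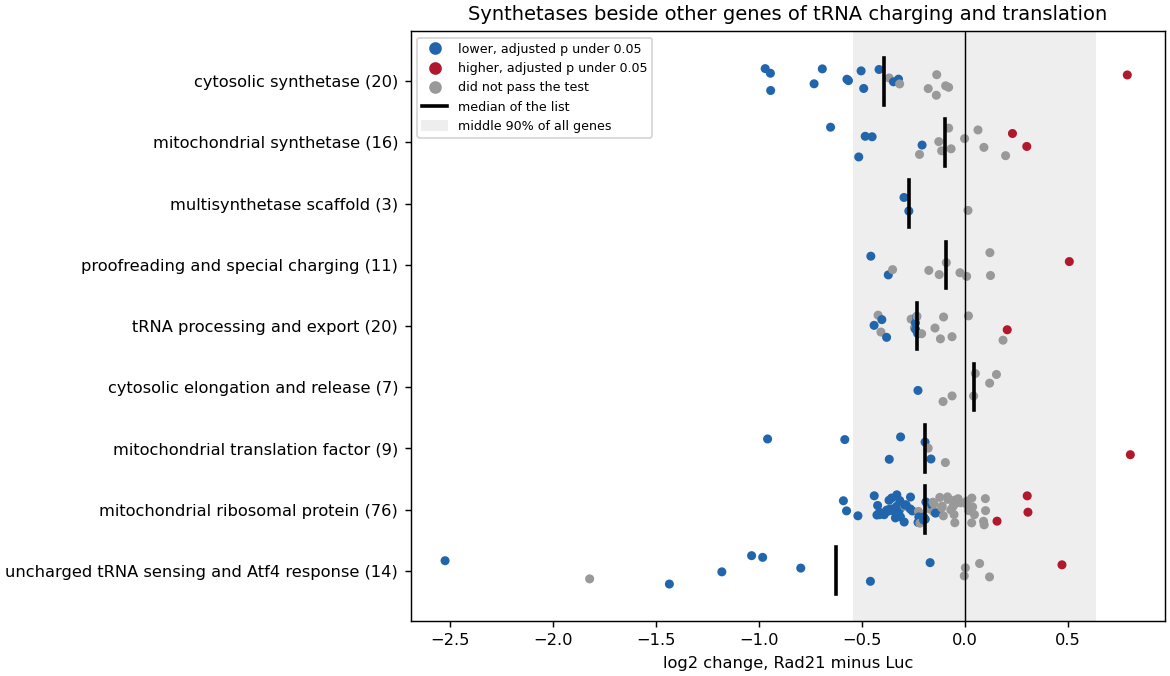
Change (log2, Rad21 minus Luc) of every measured gene in the 2 synthetase groups and in 7 other lists of tRNA charging and translation, with list medians as black bars, the middle 90% of all genes as a grey band, and blue and red for genes that passed the test. Medians run from -0.63 for uncharged tRNA sensing and the Atf4 response to 0.04 for cytosolic elongation and release, with the cytosolic synthetases at -0.39 and the mitochondrial ones at -0.10.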

How the data were processed

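The deposited values were on the log2 scale and had been made by the authors with GCRMA, which corrects background by probe GC content, normalizes the arrays to a common distribution and summarises each probe set, in Partek Genomics Suite 6.4 per the labels. A general rise or fall of all transcripts is therefore removed from the values. Scanner files were not used here. Of 45101 probe sets, 64 controls were left out. Symbols came from the platform annotation (34945 probe sets with 1 symbol, 932 with several, 9160 with none), all 36 measured members were found by Entrez ID in RefSeq GRCm38.p6, and the brightest single-symbol probe set over the 8 arrays stood for a gene.

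Groups and replicates came from the labels. Values were fitted per probe set with limma 3.58.1 (lmFit and eBayes, R 4.3.3, no block, no filter), two-sided, adjusted by Benjamini-Hochberg over 45037 probe sets, after the fit had been tested on simulated data. The study's methods name an analysis of variance, which was run as an alternative. Single array measures were compared by exact permutation. Alternatives were a replicate block, a replicate set block, each set alone, other scalings, thresholds and probe set rules, array weights, and each array left out. The number of arrays limits precision. Figures were drawn with matplotlib 3.10.9, and the values were read with the data.table package, version 1.17.8.

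The members and lists were chosen with earlier results of these data known. Arrays are given one by one for called members whose groups did not overlap, up to 10 per compartment by size of change, and up to 4 called genes in each direction are named per other list. Atf4, Eif2ak4, Aimp2, Col3a1 and the second probe sets were named after their values had been seen.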

Additional observations from a re-analysis of the deposited data

Results flagged for a closer look

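In 5 of the 72 groups of 4 arrays (36 genes in the knock-down and in the Luc control), a single array lay far from the other 3 by Dixon's criterion, which chance exceeds in about 1 of 20 groups. Rars read 12.93 on knock-down replicate 3, against 12.81 to 12.83 on the other knock-down arrays. Among Luc arrays, Pars2 read 6.92 on replicate 3, against 7.31 to 7.35 on the others, and Qars read 13.12 on replicate 2, against 13.22 to 13.23. Vars read 8.92 on Luc replicate 4, against 8.58 to 8.64, and Vars2 read 7.55 on Luc replicate 3, against 7.41 to 7.43. Without Luc replicate 3 the change of Pars2 was -0.55 (adjusted p = 4.79e-04), and without Luc replicate 2 Qars passed the test.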

How the results depend on the processing

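The directions and the counts of lower and higher cytosolic genes held under most alternatives. Leaving out 1 array at a time gave 10 to 14 lower cytosolic genes and 4 to 5 lower and 1 to 3 higher mitochondrial genes (Wars2 was gained without knock-down replicate 1, and Cars2 was lost without knock-down replicate 2 or Luc replicate 1), with medians of -0.45 to -0.35 and -0.12 to -0.07 and with 3362 to 3812 genes called. The replicate numbers did not pair the arrays (correlations of same-numbered deviations 0.0675 to 0.175). With the replicate number as a block, 14 cytosolic genes were lower and 1 mitochondrial gene was higher, Pars2 and Yars2 losing and Iars and Vars gaining their calls. Higher mitochondrial genes numbered 0 in replicates 1 and 2 alone, 1 in replicates 3 and 4 alone, 1 with the mean of all probe sets, 1 with the second brightest probe set and 0 at an adjusted p under 0.01. Lower mitochondrial genes numbered 0 in replicates 3 and 4 alone, 1 with the second brightest probe set (12 members have one) and 3 at an adjusted p under 0.01. The second sets of Ears2, Mars2, Nars2 and Iars2 averaged 2.71, 2.81, 2.95 and 3.42, near the array medians of 3.08 to 3.16. That of the cytosolic gene Cars averaged 1.80. With the second brightest probe set, 8 of 11 cytosolic genes were lower and 0 higher (Tarsl2 has none), the mitochondrial median was -0.028, 1417 genes were called, and, of the called genes named, Farsa (0.025), Cars2 (-0.020), Mrpl1 (0.22), Mrps24 (-0.0091), Tsfm (0.011), Guf1 (-0.11), Gatb (0.014) and Impact (-0.0067) had the opposite sign, none of them past the test, as did the uncalled members Mars2 (0.00040), Nars2 (-0.037) and Vars2 (0.029). At an adjusted p under 0.01, 2479 genes were called. The cause of these differences was not tested. Quantile normalization and centring on bright probe sets changed 0 of the 36 calls. The plain analysis of variance ended the calls of Eprs, Gars and Pars2, and a variance trend with a robust prior ended that of Aars2 and gained that of Iars.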
